A study of Mus musculus with 3 samples.

Results

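The circadian clock genes Per1, Per2, Per3, Cry1, Arntl, Clock, Npas2, Nr1d1, Nr1d2 and Dbp were followed in RNA-seq of mouse intestine. They were taken by gene symbol, as the activators, repressors and an output factor of the clock, and all 10 were found among the 21983 genes of the count table. Intestine was profiled from wild-type mice in 3 groups with 1 library each. The PCI34051+NEC pups went through a model of necrotizing enterocolitis (NEC), a bowel disease of the newborn, and were fed PCI34051, an inhibitor selective for the deacetylase HDAC8, at 10 mg/kg per day for 5 days, from the day before the model began. The NEC pups went through the same model and were given PBS. In the model, pups received 40 µl of 33% formula by gavage at intervals of 4 h for 96 h, and every 12 h they were held in 99.9% nitrogen for 100 s and then at 4 °C for 10 min. The control pups were fed by the dam, were not exposed to hypoxia or cold, and were given PBS. All were killed at 96 h. The labels give no age of the pups, nor the number of pups behind each library.

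The circadian clock is a feedback loop of transcription that runs in nearly every cell of the body, gut epithelium and muscle included. ARNTL (also called BMAL1) pairs with CLOCK or with its paralog NPAS2 and binds E-boxes in the genes of its own repressors, the PER and CRY proteins and the nuclear receptors NR1D1 and NR1D2 (REV-ERBα and REV-ERBβ). The NR1D receptors in turn repress Arntl, Npas2 and Clock through ROR response elements, and DBP carries the rhythm to genes with D-boxes. In the gut the clock is known to respond to feeding time and to glucocorticoids, and Per1 is a direct target of the glucocorticoid receptor. The hour of day at which tissue was taken is not given in the sources used here, and each library is a single time point of genes whose levels are known to change over the day.

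The promoter sequences of 4 members are shown because they hold the elements named above, and because the levels of these members differed in different ways. RefSeq windows of 250 bases before to 50 bases after the start (GRCm38.p6) were matched for 9 of the 10 members, in 13 windows. Per2 had no window and was not searched. They were searched on both strands for the E-box CACGTG, the variant E-box CACGTT, the D-box TTATGTAA or TTACGTAA, the letters TAGGTCA of a ROR element, and the cAMP response element TGACGTCA. The sequences run 5′ to 3′ on the strand of the gene over the 250 bases before the start, and capitals mark a motif. CACGTT appears as AACGTG where it lies on the opposite strand.
Per1 (chr11:69098699-69098948, plus strand): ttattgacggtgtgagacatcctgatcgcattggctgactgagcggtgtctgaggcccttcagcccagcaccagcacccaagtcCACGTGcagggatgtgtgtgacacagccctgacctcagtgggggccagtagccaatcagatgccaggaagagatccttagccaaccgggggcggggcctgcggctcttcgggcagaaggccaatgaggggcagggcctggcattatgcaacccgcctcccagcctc
Nr1d1 (chr11:98775378-98775627, minus strand): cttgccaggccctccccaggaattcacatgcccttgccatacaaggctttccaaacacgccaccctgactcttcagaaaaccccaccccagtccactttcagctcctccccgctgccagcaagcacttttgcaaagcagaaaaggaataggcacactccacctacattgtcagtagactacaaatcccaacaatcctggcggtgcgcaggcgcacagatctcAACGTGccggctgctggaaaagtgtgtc
Cry1 (chr10:85185055-85185304, minus strand): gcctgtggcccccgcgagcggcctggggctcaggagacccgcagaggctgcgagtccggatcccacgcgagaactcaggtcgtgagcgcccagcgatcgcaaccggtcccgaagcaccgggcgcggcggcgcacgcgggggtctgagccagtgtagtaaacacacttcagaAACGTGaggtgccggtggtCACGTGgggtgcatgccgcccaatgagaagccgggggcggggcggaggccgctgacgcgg
Per3 (chr4:151044666-151044915, minus strand): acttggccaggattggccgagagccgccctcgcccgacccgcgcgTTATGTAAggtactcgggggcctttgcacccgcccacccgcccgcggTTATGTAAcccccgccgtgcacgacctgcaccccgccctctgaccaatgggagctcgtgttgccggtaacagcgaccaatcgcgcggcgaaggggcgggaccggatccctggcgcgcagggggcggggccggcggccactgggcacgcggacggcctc

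The E-box began 166 bases before the start in Per1 and 60 bases before it in Cry1. Among the members with a window, these 2 were the only ones with CACGTG. Of all 32851 promoter windows 7.15% had it, a share of windows and not of genes. Another window of Per1, not shown, held no motif. Nr1d1 held the variant E-box 28 bases before its start and Cry1 held it 79 bases before, and 4.68% of all windows had it. Per3 held 2 D-boxes, starting 205 and 158 bases before the start, where 1.06% of windows had any. The letters TAGGTCA were found in 1 of the windows of Arntl, at base 31 after the start, and in 2.61% of all windows. The cAMP response element, present in 1.79% of windows, was not among the letters of the members' windows. A match describes the letters of the window only.

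The libraries held 16497580 counts (PCI34051+NEC), 10650638 counts (NEC) and 15076413 counts (control), of which 8632, 5529 and 4939 belonged to the 10 members. Levels are given in CPM, read counts divided by the TMM-scaled library size. Log2 folds were taken after adding 1 to the CPM, which understates the difference of low genes. With 1 library per group there is no test between groups, no p-value and no standard error. Intervals are 95% intervals that cover counting error only. The NEC library stood apart. The summed level of 12 smooth muscle markers was 1859.7 CPM in the PCI34051+NEC, 13972.8 CPM in the NEC and 2081.1 CPM in the control library, and 10 of the 12 were at least 2-fold higher in NEC than in control. The 9 markers of enteric neurons and glia summed to 105.1, 788.8 and 113.9 CPM in the same order. Gfap was near the floor throughout, with 3, 0 and 4 counts. Of the 8 measured in NEC over control, 7 were at least 2-fold higher, and S100b was not (2.19 against 2.64 CPM). The 10 epithelial markers, all detected in every library as the labelled tissue calls for, summed to 10853.2 CPM (PCI34051+NEC), 5904.5 CPM (NEC) and 9462.4 CPM (control). In NEC over control the median log2 fold of these markers was -0.92, but not every marker was lower. At 2-fold, 5 were lower, 4 were within 2-fold and 1 (Krt19) was higher. Krt19 was at 638.1 CPM in NEC and 54.2 CPM in control, and Lgals4 was at 2682 and 2279 CPM. Fibroblast markers (6 genes) summed to 718.6, 2663.6 and 759.5 CPM and endothelial markers (6 genes) to 113.4, 203.4 and 119.4 CPM. Of the 6 liver markers, 5 were at least 2-fold higher and 1 (Ttr) was lower in NEC than in control, and 4 were lower and 1 (Ttr) higher in PCI34051+NEC than in NEC. Alb was at 0.394 CPM in PCI34051+NEC, 100.4 CPM in NEC and 9.31 CPM in control. The summed level of the list (212.5, 190.5 and 366.3 CPM) was mostly Ttr, at 208.8, 57.6 and 352.7 CPM. The 6 markers of pancreatic acinar cells summed to 3.81, 1.83 and 0.378 CPM. Mitochondrially encoded genes took 3.73%, 32.4% and 4.88% of counts in that order. The part of these differences in any clock gene level was not tested. In bulk tissue, fewer cells of a type and less RNA per cell cannot be told apart.

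**Figure D1:**
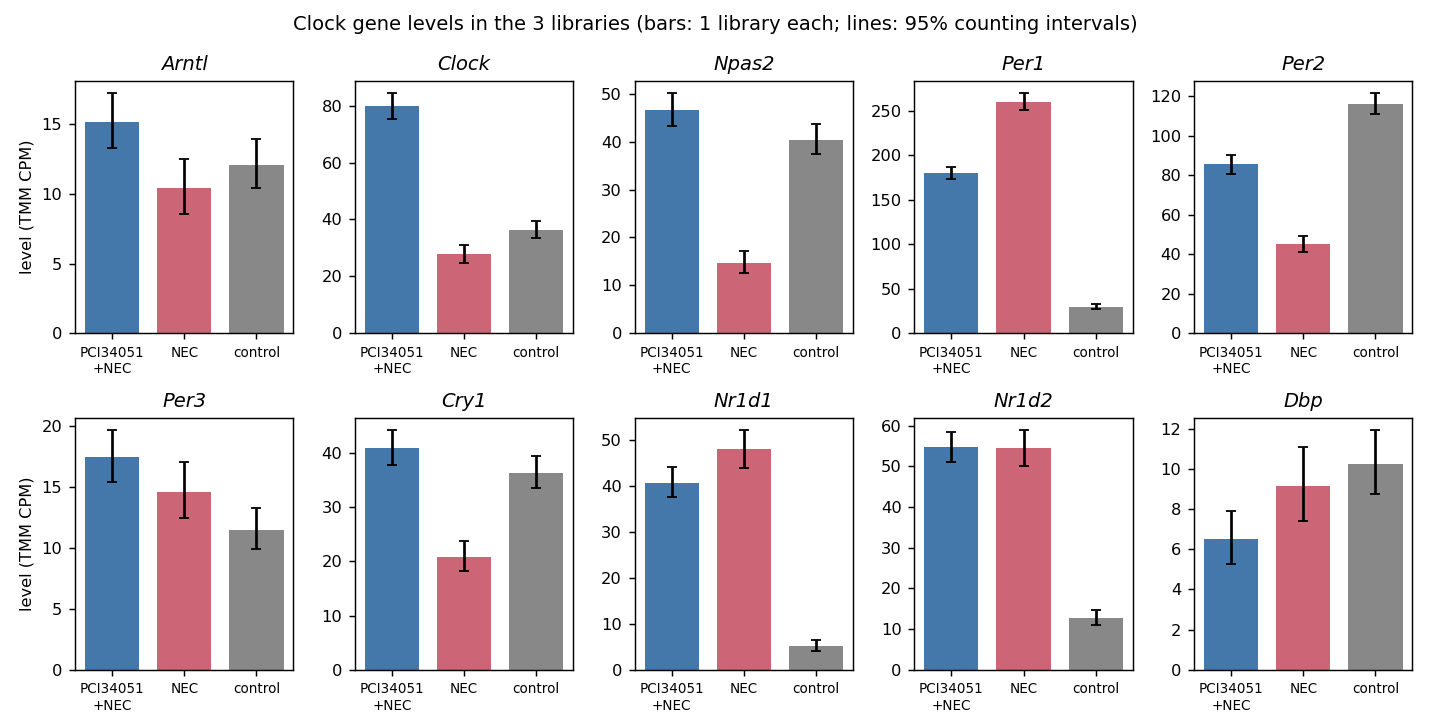
Level of each clock gene (TMM CPM, linear axis from 0, a scale of its own per panel) in the PCI34051+NEC, NEC and control libraries, 1 library per bar, with 95% counting intervals. Per1, Nr1d1 and Nr1d2 are high in the PCI34051+NEC and NEC libraries and low in the control library, while Npas2, Cry1 and Per2 are lowest in the NEC library.

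The repressor genes Per1, Nr1d1 and Nr1d2 were several-fold higher in both libraries of the model than in the control library, while the other repressors Per2, Per3 and Cry1 were not. Npas2 and Per2 were at least 2-fold lower in NEC than in control, and Clock was highest in the PCI34051+NEC library. Arntl, Cry1, Per3 and Dbp stayed short of 2-fold in every comparison. The model libraries differed from the control in feeding, hypoxia and cold together, so that their parts cannot be told apart.

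Per1 (chromosome 11, 69095217 to 69109960, plus strand, mm10, protein-coding) encodes the PERIOD protein that is induced fastest by hormones and stress signals. It had 2735 counts in the PCI34051+NEC library, 2849 counts in the NEC library and 471 counts in the control library, or 179.7, 260.2 and 29.6 CPM. Both libraries of the model lay far above the control and their counting intervals did not meet it. The ratio over control was 6.06 (5.50 to 6.70) for PCI34051+NEC and 8.78 (7.96 to 9.70) for NEC. The log2 fold of NEC over control, 3.09, was 2.39 after correction for transcript GC content and length. Among all measured genes, 0.461% were as far above control as Per1 in the PCI34051+NEC library and 1.39% in the NEC library. Between PCI34051+NEC and NEC, Per1 was 1.45-fold lower with the inhibitor (1.37 to 1.53), a log2 fold of -0.53 that became 0.01 with the same correction.

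Nr1d1 (chromosome 11, 98767932 to 98775333, minus strand), the receptor REV-ERBα, had 619 counts in the PCI34051+NEC, 524 counts in the NEC and 83 counts in the control library. These correspond to 40.7, 47.9 and 5.22 CPM. The order of the libraries was that of Per1, with the control lowest by a wide margin. The ratio over control was 7.79 (6.18 to 9.91) for PCI34051+NEC and 9.16 (7.26 to 11.7) for NEC. Of all measured genes, 0.366% and 1.67% were as far above control in the PCI34051+NEC and NEC libraries. Its 3′ end overlaps that of Thra, a thyroid hormone receptor gene on the opposite strand, over 1075 bases, and the strand setting of the counting is not given. Thra itself was at 142.2 CPM (PCI34051+NEC), 172.5 CPM (NEC) and 129.0 CPM (control). Whether reads of Thra entered the Nr1d1 counts was not tested.

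Nr1d2 (chromosome 14, 18204054 to 18239127, minus strand), the paralog REV-ERBβ, had 832 counts in the PCI34051+NEC, 596 counts in the NEC and 202 counts in the control library. The levels were 54.7, 54.4 and 12.7 CPM. Both libraries of the model were at the same level within counting error, with a ratio of PCI34051+NEC over NEC of 1.004 (0.903 to 1.12), and both were above control. After correction for transcript GC content and length the log2 fold between them was -0.58 rather than 0.01. Over control the ratio was 4.30 (3.68 to 5.04) for PCI34051+NEC and 4.28 (3.65 to 5.05) for NEC.

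Per2 (chromosome 1, 91415982 to 91459324, minus strand), a PERIOD gene with a core role in the loop, went another way than Per1. It had 1300 counts in the PCI34051+NEC, 492 counts in the NEC and 1847 counts in the control library, or 85.4, 44.9 and 116.2 CPM. The NEC library was lowest and the control highest, and no 2 libraries were within counting error of each other. Per2 was 2.59-fold lower in NEC than in control (2.34 to 2.86), 1.90-fold higher in PCI34051+NEC than in NEC (1.71 to 2.11) and 1.36-fold lower in PCI34051+NEC than in control (1.27 to 1.46).

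Cry1 (chromosome 10, 85131700 to 85185064, minus strand), a cryptochrome that represses CLOCK and ARNTL, had 624 counts in the PCI34051+NEC, 228 counts in the NEC and 579 counts in the control library. Its levels were 41.0, 20.8 and 36.4 CPM, lowest in the NEC library. The NEC level was 1.75-fold lower than control (1.498 to 2.05), short of 2-fold. After correction for transcript GC content and length the log2 fold of -0.78 was -0.41. PCI34051+NEC and control differed by a ratio of 1.13 (1.003 to 1.26), at the edge of counting error, and the log2 fold of 0.17 became -0.02 with scaling to total counts. Cry1 and Per1, the members with CACGTG in the sequences shown above, thus differed in direction in NEC over control, with log2 folds of -0.78 and 3.09.

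Per3 (chromosome 4, 151003652 to 151044665, minus strand), a PERIOD gene of lesser weight in the loop, had 266 counts in the PCI34051+NEC, 160 counts in the NEC and 183 counts in the control library, or 17.5, 14.6 and 11.5 CPM. The model libraries did not differ beyond counting error, at 1.20 (0.979 to 1.46), and the direction flipped to -0.02 on the log2 scale with upper quartile scaling. PCI34051+NEC was 1.52-fold above control (1.25 to 1.84). Per3 lies inside the gene Camta1 on the same strand, which was at 13.5 CPM (PCI34051+NEC), 23.9 CPM (NEC) and 12.4 CPM (control).

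Among the activators, Npas2 (chromosome 1, 39193731 to 39363236, plus strand), which can take the place of CLOCK, had 710 counts in the PCI34051+NEC, 161 counts in the NEC and 643 counts in the control library. The levels were 46.6, 14.7 and 40.5 CPM. The NEC library was low, and the other libraries were close to each other. Npas2 was 3.17-fold higher in PCI34051+NEC than in NEC (2.67 to 3.79) and 2.75-fold lower in NEC than in control (2.31 to 3.29). PCI34051+NEC was 1.15-fold above control (1.04 to 1.29), but the log2 fold of 0.20 became 0.01 with scaling to total counts.

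Clock (chromosome 5, 76209868 to 76304792, minus strand), the DNA-binding partner of ARNTL, had 1216 counts in the PCI34051+NEC, 305 counts in the NEC and 576 counts in the control library, or 79.9, 27.9 and 36.2 CPM. Here the PCI34051+NEC library stood above the other libraries. Clock was 2.87-fold higher in PCI34051+NEC than in NEC (2.53 to 3.26) and 2.20-fold higher than in control (1.99 to 2.44). The log2 fold of 1.12 over control was 0.93 with scaling to total counts and 0.91 after correction for transcript GC content and length, both short of 2-fold. The ratio of NEC over control was 0.769 (0.667 to 0.884).

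Arntl (chromosome 7, 113207465 to 113314126, plus strand), the partner without which the loop stops, had 231 counts in the PCI34051+NEC, 114 counts in the NEC and 192 counts in the control library. Its levels were 15.2, 10.4 and 12.1 CPM, a narrow range beside that of Nr1d1. The ratio of NEC over control was 0.862 (0.678 to 1.09), within counting error. PCI34051+NEC was 1.46-fold above NEC (1.16 to 1.84) and 1.26-fold above control (1.03 to 1.53). The log2 fold over control, 0.31, was 0.07 with thinning to the shallowest library.

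Dbp (chromosome 7, 45705088 to 45710203, plus strand), the output factor, had the fewest counts of the members in the PCI34051+NEC and NEC libraries, with 99 counts in the PCI34051+NEC, 100 counts in the NEC and 163 counts in the control library. Its levels were 6.50, 9.13 and 10.3 CPM. NEC and control did not differ beyond counting error, at 0.891 (0.687 to 1.15), and PCI34051+NEC was 1.58-fold lower than control (1.22 to 2.05). The log2 fold of PCI34051+NEC over NEC, -0.43, flipped to 0.39 after correction for transcript GC content and length, and that of NEC over control moved to -0.92, against -0.15 without it. Dbp overlaps Sphk2, a sphingosine kinase gene on the opposite strand, over 737 bases, and Sphk2 was at 99.9 CPM (PCI34051+NEC), 35.4 CPM (NEC) and 67.4 CPM (control).

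**Figure D2:**
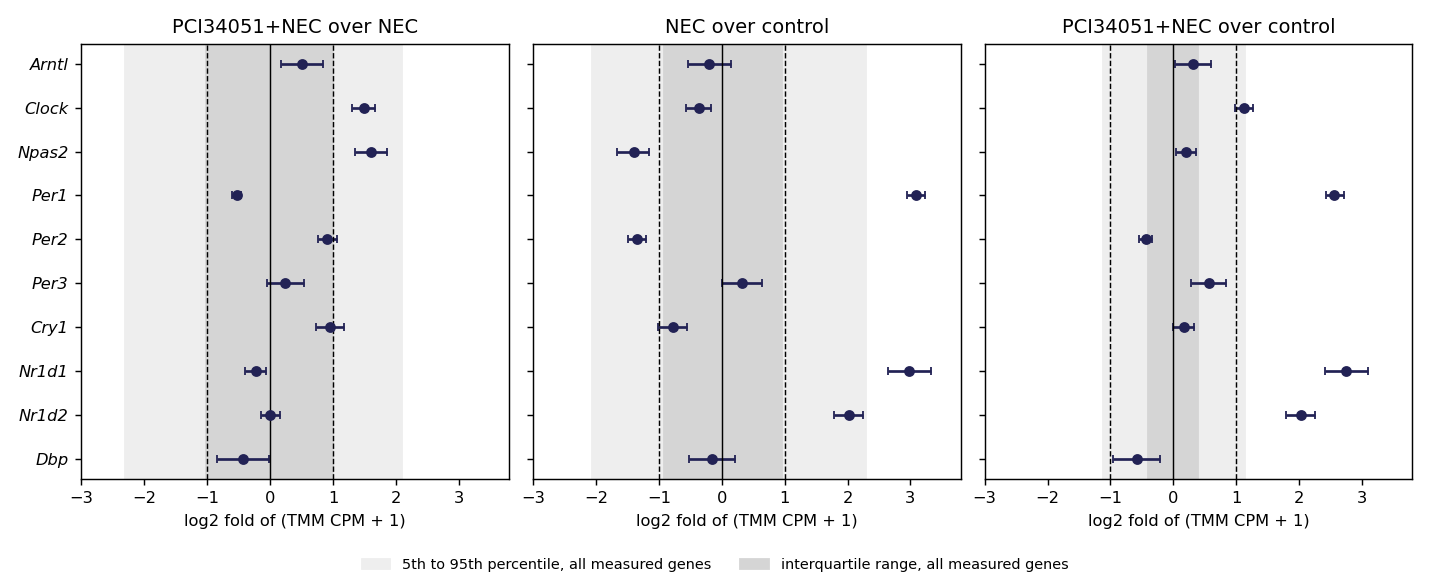
Log2 fold of (TMM CPM + 1) of the 10 clock genes in PCI34051+NEC over NEC, NEC over control and PCI34051+NEC over control (points), on shaded percentile ranges of all measured genes, and with dashed lines at 2-fold. Horizontal lines are the 95% counting intervals of the plain CPM ratio, shifted to lie around the points. In PCI34051+NEC over control, Per1 (2.56), Nr1d1 (2.74) and Nr1d2 (2.02) lie beyond the range that holds 90% of all genes.

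Counted at 2-fold, 4 of the 10 members (Per1, Nr1d1, Nr1d2 and Clock) were higher and 0 were lower in PCI34051+NEC than in control, where 6.55% of the 13652 measured genes were higher and 6.55% were lower. The median log2 fold of the members was 0.43, and that of all measured genes was 0.00. In this pair of libraries the smooth muscle markers were close, with 0 of 12 at 2-fold in either direction, as was the epithelial list, with 1 of 10 higher. The 7 leukocyte markers were not close: 6 were at least 2-fold lower in PCI34051+NEC than in control, with summed levels of 210.4 CPM in PCI34051+NEC, 95.2 CPM in NEC and 633.5 CPM in control. These sums were mostly Csf1r, at 160.4, 58.8 and 406.3 CPM. From control to NEC, 4 were at least 2-fold lower and 1 (Itgam) was higher, at 1.32 and 9.04 CPM. Of the 4 liver markers measured in PCI34051+NEC over control, 2 (Alb and Fgg) were at least 2-fold lower and 1 (Serpina1a) was higher. The part of the leukocyte and liver marker differences in the clock gene levels was not tested. In NEC over control, 3 members (Per1, Nr1d1 and Nr1d2) were at least 2-fold higher, against 24.2% of 14627 genes, and 2 (Per2 and Npas2) were at least 2-fold lower, against 22.9%. Those shares are near the background. The median was -0.17 over the members and -0.03 over all genes. In PCI34051+NEC over NEC, 2 members (Clock and Npas2) were at least 2-fold higher and 0 were lower, against 25.0% and 25.6% of 14410 genes, with medians of 0.37 over the members and 0.01 over all genes. Each pair of these comparisons shares a library. All 10 members passed the minimum of 1 CPM in every comparison.

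Levels per kilobase of merged exons allow the members to be set beside each other roughly. The length merges all annotated exons of a gene and can exceed that of the transcripts present, so close ranks are not firm. In the PCI34051+NEC library Per1 was highest, at 31.9 CPM per kb, followed by Per2 at 14.6 and Nr1d1 at 13.2 CPM per kb, and Per3 was lowest at 1.82 CPM per kb. In the NEC library Per1 led at 46.2 CPM per kb, before Nr1d1 at 15.6 and Nr1d2 at 10.1 CPM per kb, and Arntl was lowest at 1.38 CPM per kb. In the control library Per2 led at 19.9 CPM per kb, before Cry1 at 10.9 and Npas2 at 8.44 CPM per kb, with Per3 lowest at 1.20 CPM per kb and Nr1d1 among the low members at 1.70 CPM per kb. The leading member was thus Per1 in the libraries of the model and Per2 in the control.

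Count ratios between 2 genes of the same library do not depend on the scaling between libraries, but were not corrected for transcript GC content and length. The pairs were chosen after the values were seen. Nr1d1 counts over Arntl counts, a repressor over its target, stood at 2.68 (2.30 to 3.13) in the PCI34051+NEC library, 4.60 (3.75 to 5.68) in the NEC library and 0.432 (0.330 to 0.562) in the control library. No 2 of these intervals met. Per1 over Per2 was 2.10 (1.97 to 2.25) in PCI34051+NEC, 5.79 (5.26 to 6.39) in NEC and 0.255 (0.230 to 0.282) in control. Per1 counts exceeded Per2 counts in both libraries of the model, and the reverse held in the control. Dbp over Arntl did not follow this order, at 0.429 (0.335 to 0.545) in PCI34051+NEC, 0.877 (0.664 to 1.16) in NEC and 0.849 (0.685 to 1.05) in control. After correction for transcript GC content and length, log2 folds of PCI34051+NEC over NEC were close, at 0.39 for Dbp and 0.37 for Arntl. Those of NEC over control were -0.92 and -0.12, so that PCI34051+NEC no longer stood alone as lowest in Dbp over Arntl. Clock over Npas2 was 1.71 (1.56 to 1.88) in PCI34051+NEC, 1.89 (1.56 to 2.31) in NEC and 0.896 (0.799 to 1.00) in control, and the intervals of the model libraries overlapped each other but not that of the control.

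**Figure D3:**
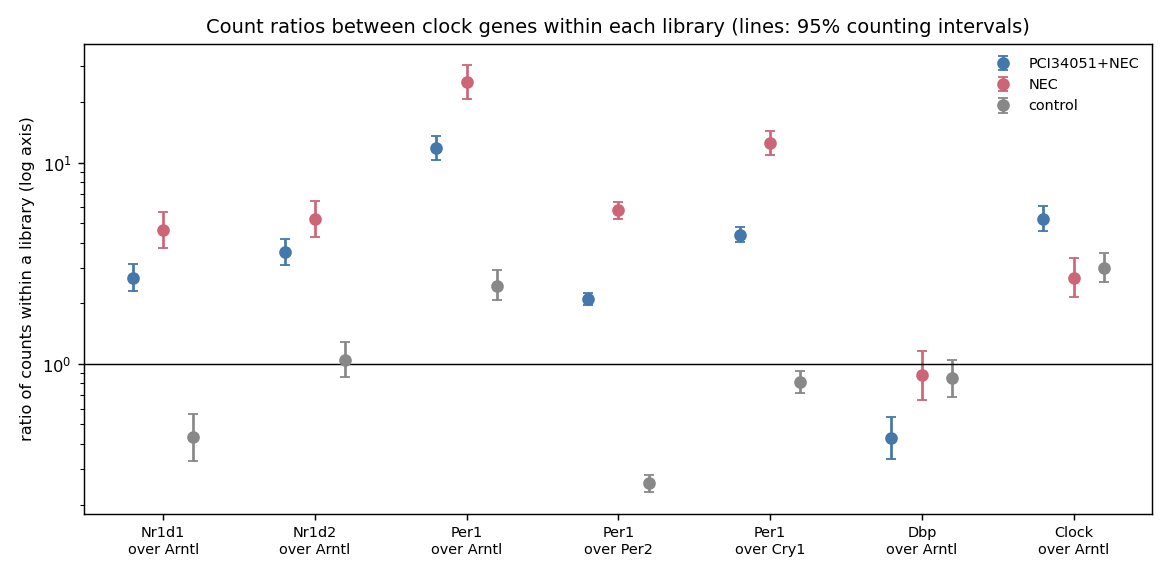
Ratio of the counts of pairs of clock genes within each library (log axis), with 95% counting intervals, for the PCI34051+NEC, NEC and control libraries. The ratios with Nr1d1, Nr1d2 or Per1 on top are lowest in the control library, as in Nr1d1 over Arntl with 2.68, 4.60 and 0.432, whereas Dbp over Arntl is lowest in the PCI34051+NEC library at 0.429. The ratios are not corrected for transcript GC content and length.

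Other transcription factors of the loop and its output differed from one another. Of 10 genes (Cry2, Arntl2, Bhlhe40, Bhlhe41, Ciart, Rora, Rorb, Nfil3, Tef and Hlf), 9 were measured in PCI34051+NEC over control, with 3 at least 2-fold higher (Cry2, Ciart and Nfil3), 0 lower and a median log2 fold of 0.26. Over all measured genes 6.55% were higher and 6.55% lower there. Cry2, the second cryptochrome, was at 255.3 CPM in PCI34051+NEC, 78.7 CPM in NEC and 48.6 CPM in control, 5.26-fold above control with the inhibitor (4.86 to 5.69). Its levels did not follow those of Cry1. Ciart, an E-box-driven repressor also called CHRONO, was at 5.91 CPM (PCI34051+NEC), 4.29 CPM (NEC) and 1.57 CPM (control), higher in both libraries of the model. Nfil3, the repressor that competes with DBP at D-boxes, was at 37.9 CPM, 23.5 CPM and 18.1 CPM in that order.

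In NEC over control, 3 of the 10 were higher (Bhlhe41, Ciart and Rorb), 2 were lower (Bhlhe40 and Rora) and the median was 0.43, shares near the 24.2% higher and 22.9% lower over all genes. Relative to NEC, 3 were higher in PCI34051+NEC (Cry2, Bhlhe40 and Rora), 2 were lower (Arntl2 and Bhlhe41) and the median was 0.46, again near the 25.0% and 25.6% over all genes. Bhlhe40, a repressor of E-box genes also called DEC1, was at 290.5 CPM in PCI34051+NEC, 65.1 CPM in NEC and 340.5 CPM in control, 5.23-fold lower in NEC than in control (4.84 to 5.66). Rora, whose product activates Arntl at the elements where NR1D receptors repress it, was at 28.8 CPM in PCI34051+NEC, 7.58 CPM in NEC and 17.1 CPM in control, lowest in the NEC library. Tef, a relative of Dbp, was at 134.9 CPM (PCI34051+NEC), 93.2 CPM (NEC) and 134.0 CPM (control), and Hlf, another, was at 5.32, 5.39 and 4.28 CPM.

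Genes known in mouse liver as rhythmic outputs of the clock or of DBP and its relatives were also counted. Of 10 listed (Usp2, Noct, Wee1, Nampt, Por, Alas1, Nr1i3, Cyp2b10, Ces2a and Cys1), 9 were measured, and Cyp2b10 had 0 counts in all 3 libraries. Over NEC, 5 were at least 2-fold higher in PCI34051+NEC (Noct, Wee1, Nampt, Por and Nr1i3) and 0 lower, with a median log2 fold of 1.05, where 25.0% of all genes were higher and 25.6% lower. In NEC over control, 1 was higher (Usp2), 2 were lower (Wee1 and Nampt) and the median was -0.72, against 24.2% and 22.9% of all genes. Relative to control, 3 were higher in PCI34051+NEC (Usp2, Wee1 and Por), 0 were lower and the median was 0.63, against 6.55% of all genes in each direction. Usp2, a deubiquitinase gene with a strong daily rhythm in liver, was at 8.28 CPM (PCI34051+NEC), 12.5 CPM (NEC) and 2.20 CPM (control), the same order as Per1 and Nr1d1. Por, the reductase that feeds electrons to cytochromes P450, was at 329.7 CPM in PCI34051+NEC, against 98.8 CPM in NEC and 81.4 CPM in control. Wee1, a cell cycle kinase gene, was at 43.2, 8.86 and 19.2 CPM in that order.

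Per1 also belongs to the glucocorticoid-induced genes, of which 10 others (Fkbp5, Tsc22d3, Zbtb16, Pdk4, Sgk1, Klf9, Dusp1, Errfi1, Mt2 and Nfkbia) were listed. At 2-fold, 8 of them were above control in PCI34051+NEC and none (0) was below, the median log2 fold being 3.37, where 6.55% of all genes were higher and 6.55% lower. The same count over control was 5 above and 0 below in NEC, with a median of 1.37, against 24.2% and 22.9% of all genes. Over NEC, 6 were higher in PCI34051+NEC and 0 lower (25.0% and 25.6% of all genes), with a median of 1.18, whereas Per1 itself had a log2 fold of -0.53 there. Fkbp5, a co-chaperone of the receptor, was at 471.1 CPM (PCI34051+NEC), 292.3 CPM (NEC) and 5.35 CPM (control), and Tsc22d3 was at 640.8, 204.1 and 57.6 CPM. Klf9, a glucocorticoid-induced repressor with a daily rhythm in other tissues, was at 81.1 CPM in PCI34051+NEC, 18.5 CPM in NEC and 18.4 CPM in control. This list and the members were chosen with earlier results of these data known, and the part of glucocorticoid signalling in the level of Per1 was not tested.

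**Figure D4:**
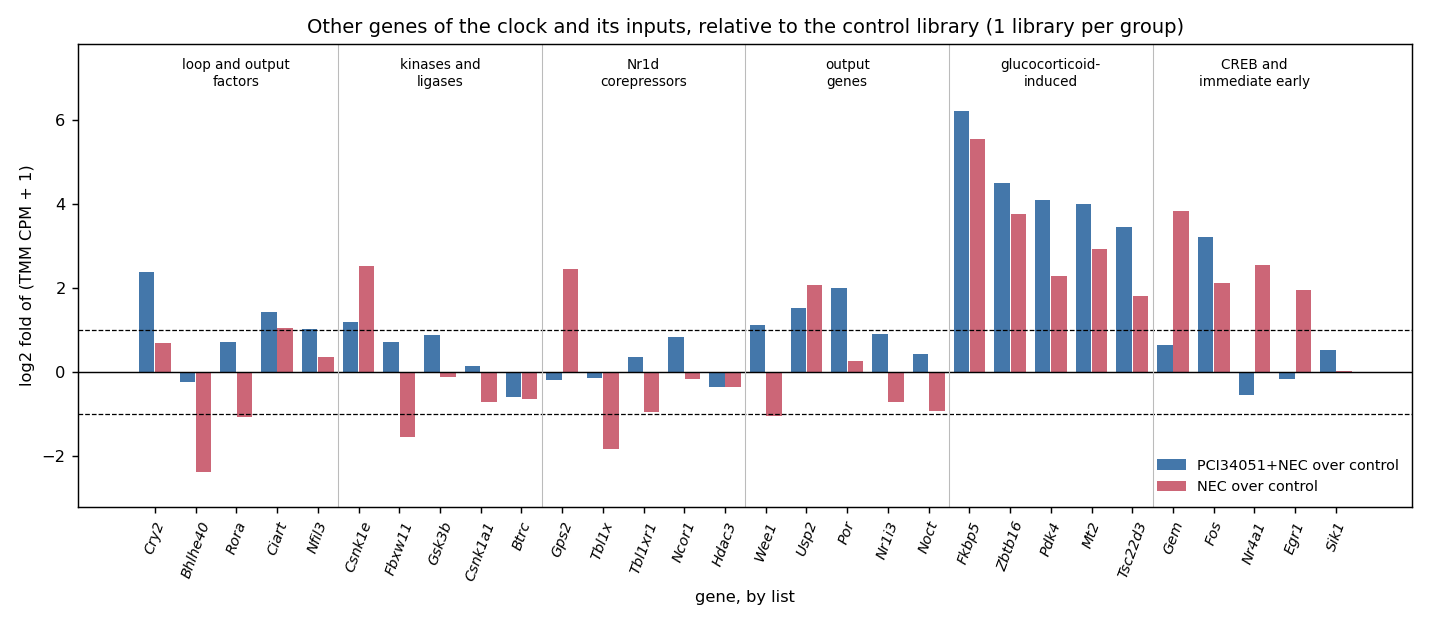
Log2 fold of (TMM CPM + 1) over the control library for up to 5 genes of each of 6 lists around the clock, for PCI34051+NEC (blue) and NEC (red), with dashed lines at 2-fold and 1 library per group. Fkbp5 (6.22 and 5.53), Zbtb16 (4.49 and 3.75) and Usp2 (1.53 and 2.08) are above control in both libraries, while Bhlhe40 (-0.23 and -2.37) and Wee1 (1.13 and -1.03) are at least 2-fold below it in NEC.

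The genes nearest in pattern were sought by the distance between pairs of log2 folds over control (NEC and PCI34051+NEC), over 3 libraries. The search took 11792 genes at 5 CPM or more in the highest library, with predicted genes and the clock gene members left out. No gene of the search lay within a distance of 0.25 of Per1. Nr1d1, a member and so not searched, was close to it. Its log2 folds over control were 2.97 (NEC) and 2.74 (PCI34051+NEC), beside 3.09 and 2.56 for Per1. The nearest were Cda, a cytidine deaminase gene (distance 0.28, at 10.2, 14.6 and 1.13 CPM in PCI34051+NEC, NEC and control), Vill (0.39) and Dmbt1 (0.47). By contrast, 419 genes lay within that distance of Arntl, with Trim27, Ube4b and Stk25 the nearest, and 211 lay within it of Dbp, with Ngfr, Alkbh6 and Dennd1a the nearest. With 3 libraries such likeness is a description of levels only.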

How the data were processed

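RNA from mouse intestine was extracted with TRIzol and read as 150 bp paired ends on an Illumina NovaSeq, per the labels' protocols. Raw counts were deposited by gene symbol in 1 table covering the 3 libraries. Per the submitters' processing notes, mm10 was the genome build. No source used here names the aligner, annotation, strand setting or filters. The name of the column used for PCI34051+NEC did not match its sample's description letter for letter, and every PCI34051+NEC value rests on that assignment. No column was left unused (0).

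The counts were then normalised by the TMM method of edgeR 4.0.16 (R 4.3.3; factors 0.923, 1.028 and 1.054 for PCI34051+NEC, NEC and control). Log2 folds used a pseudocount of 1 CPM. A gene was measured with at least 1 CPM in 1 or more libraries of the comparison and counted as higher or lower at 2-fold. Ratios of CPM have exact conditional binomial (Clopper-Pearson) intervals at 95%, and levels in plots exact Poisson ones. Without molecular identifiers, PCR copies count more than once, so intervals cover counting error only. Coordinates and exon lengths came from GENCODE M21, in which 21926 of 21983 symbols were found. The procedure was tested on simulated counts in which far fewer genes differed than between these libraries, so that test does not cover the scaling of the NEC library. The alternatives tried were total counts, size factors from DESeq2 1.42.0, TMM with mitochondrially encoded genes and the top 50 genes by abundance left out, upper quartile scaling, a minimum of 5 CPM, no filter, pseudocounts of 0.25 and 4, thinning to the shallowest library, a 1.5-fold threshold, counting intervals beyond 2-fold, and removal of the trend with transcript GC content and length (30 bins each).

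The members, the gene lists and the rule for named genes were chosen with earlier results of these data known. Some genes of these lists are not reported here and were left out of the counts. The rule named all members and, for each list, up to 5 genes of at least 5 CPM that differed most. It also named the 3 genes outside the members nearest in pattern to Arntl, Per1 and Dbp. Tef, Hlf, Klf9 and Cyp2b10 and the genes that lists of higher or lower members name were added after their values were seen. Intervals came from scipy 1.17.1 under Python 3.11.15, tables from pandas 2.3.3 and numpy 2.4.6, and plots from matplotlib 3.10.9.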

Additional observations from a re-analysis of the deposited data

How the results depend on the processing

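Per1, Nr1d1 and Nr1d2 were at least 2-fold above control in NEC and in PCI34051+NEC under all 12 alternatives, and Clock and Npas2 were at least 2-fold above NEC in PCI34051+NEC under all of them. With a 1.5-fold threshold, 4 members instead of 2 were higher in PCI34051+NEC than in NEC (Per2 and Cry1 were added), and 1 instead of 0 was lower in PCI34051+NEC than in control (Dbp). The lower threshold itself accounts for both. Other counts of members stayed within 1.5 times, although Clock left the 4 genes higher in PCI34051+NEC than in control under total counts, upper quartile scaling, counting intervals beyond 2-fold and the correction for GC content and length, which left 3. Over all genes, upper quartile scaling moved the medians to -0.26 (PCI34051+NEC over NEC), 0.11 (NEC over control) and -0.13 (PCI34051+NEC over control), and total counts to -0.14, -0.06 and -0.18. With upper quartile scaling 18.92% of genes were higher and 30.99% lower in PCI34051+NEC over NEC, and 5.01% and 8.34% in PCI34051+NEC over control. With total counts the shares in PCI34051+NEC over control were 4.65% and 9.23%. Nr1d2 in PCI34051+NEC over NEC was -0.58 after the correction for GC content and length, which also made Per2 at least 2-fold higher there (1.20), and the cause was not tested. No replicate could be left out, and no paired analysis was possible because each group has 1 library. Depth limits Dbp most in the model libraries, with 99 counts in PCI34051+NEC and 100 counts in NEC.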

Other observations

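The kinases and ubiquitin ligases that act on PER and CRY proteins (Csnk1d, Csnk1e, Csnk1a1, Gsk3b, Btrc, Fbxw11 and Fbxl21) were also listed. At 2-fold, 25.0% of all measured genes were higher and 25.6% lower in PCI34051+NEC over NEC, 24.2% and 22.9% in NEC over control, and 6.55% in each direction in PCI34051+NEC over control, and the counts of the lists named here are to be read against these shares. Relative to NEC, 1 of 7 was at least 2-fold higher in PCI34051+NEC and 1 was lower, and the median log2 fold was 0.85. In NEC over control, 1 was higher and 2 lower, with a median of -0.64, and in PCI34051+NEC over control 1 was higher and 0 lower, with a median of 0.39. Csnk1e, a casein kinase gene whose product phosphorylates PER proteins, was at 48.6 CPM in PCI34051+NEC, 124.0 CPM in NEC and 20.9 CPM in control. Fbxw11, a subunit of the ligase that marks PER proteins for degradation, was at 93.4, 18.6 and 56.1 CPM, lowest in the NEC library.

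Genes of the corepressor complex that NR1D receptors recruit (Ncor1, Hdac3, Tbl1x, Tbl1xr1 and Gps2) showed 0 of 5 at 2-fold in PCI34051+NEC over control, with a median of -0.15. Relative to NEC, 2 were higher and 1 lower in PCI34051+NEC (median 0.99), and in NEC over control 1 was higher and 1 lower (median -0.35). Hdac3, the deacetylase of the complex, was at 46.8 CPM (PCI34051+NEC), 47.1 CPM (NEC) and 60.2 CPM (control). Gps2 stood out in the NEC library, with 37.9 CPM in PCI34051+NEC, 240.8 CPM in NEC and 43.2 CPM in control. Among CREB and immediate early genes (Sik1, Crem, Fos, Nr4a1, Egr1 and Gem), 4 of 6 were at least 2-fold higher and 0 lower in NEC over control (median 2.03), 1 was higher and 3 lower in PCI34051+NEC over NEC (median -1.15), and 1 was higher and 0 lower in PCI34051+NEC over control (median 0.19). Fos was at 70.9, 32.5 and 6.73 CPM in PCI34051+NEC, NEC and control, whereas Nr4a1 was at 2.76, 31.0 and 4.47 CPM.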
